A study of Mus musculus with 8 samples.

Results

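The 8 microRNAs (miRNAs) described here belong to the miR-15 and miR-16 family or to the miR-322 and miR-503 cluster of the mouse. They are mmu-miR-15a-5p, mmu-miR-15b-5p, mmu-miR-16-5p, mmu-miR-195a-5p, mmu-miR-497a-5p, mmu-miR-322-5p, mmu-miR-322-3p and mmu-miR-503-5p, written below without the species prefix, and they were chosen by name from the 1881 mouse miRNAs on the array, of which 408 were tested. Kidneys of 8-week-old male C57BL/6 mice were profiled as whole tissue on 8 arrays, 1 per sample. In 4 of these samples the tissue was taken 7 days after unilateral ureteral obstruction (UUO), the closure of a single ureter that injures the kidney draining into it. In the other 4 (Sham) it was taken 7 days after sham surgery, an operation without the obstruction. The labels do not say in words that each sample came from its own mouse, so p-values measure the spread between these samples, which may be technical. They also do not say which kidney was sampled, or whether tissue was pooled. In whole tissue, a change in the share of a cell type and a change in the RNA content of each cell cannot be told apart.

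A miRNA guides Argonaute proteins to messenger RNAs, mostly by pairing of its seed, the bases just behind its 5′ end, and lowers their translation or stability. miR-15, miR-16 and their relatives are known for holding back the cell cycle: their targets include D-type and E-type cyclins, the kinases CDK6 and CHK1 and the survival protein BCL2. In the obstructed kidney, tubule cells that are normally at rest enter the cell cycle while leukocytes and fibroblasts gather between the tubules. miRNAs of one hairpin cluster are cut from a shared primary transcript, and each hairpin can give a 5p and a 3p arm.

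The mature sequences are shown because the seed defines the family and the rest of each sequence tells the members apart on the array. All 8 matched the RefSeq annotation of mouse build GRCm38.p6. They are printed 5′ to 3′ with bases 2 to 8, the seed, in capitals.
miR-15a-5p: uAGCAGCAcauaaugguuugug
miR-15b-5p: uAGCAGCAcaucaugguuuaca
miR-16-5p: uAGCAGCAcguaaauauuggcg
miR-195a-5p: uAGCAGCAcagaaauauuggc
miR-497a-5p: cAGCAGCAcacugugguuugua
miR-322-5p: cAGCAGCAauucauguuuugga
miR-503-5p: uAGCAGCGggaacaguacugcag
miR-322-3p: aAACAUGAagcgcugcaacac

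Of these, 6 shared the seed AGCAGCA, while miR-503-5p carried AGCAGCG and miR-322-3p, the opposite arm of the miR-322 hairpin, carried AACAUGA. A further 4 mature miRNAs in the RefSeq table had the seed AGCAGCA (miR-195b, miR-6342, miR-6353 and miR-6419). All 4 were on the array and were detected on 0 of 8 arrays. Outside the seed, miR-15a-5p and miR-15b-5p differed at 4 positions counted from the 5′ end (A12C, G20A, U21C and G22A, with the base of miR-15a-5p first). miR-16-5p and miR-195a-5p were closer still, with 2 differences over 21 bases (G10A and U11G, with the base of miR-16-5p first).

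The members lie in 4 clusters of hairpins. Mir15a and Mir16-1 lie within the long noncoding RNA gene Dleu2, with 54 bases between the hairpins, and give miR-15a-5p at chr14:61632075-61632096 and miR-16-5p at chr14:61631936-61631957, both on the minus strand. Mir15b and Mir16-2 lie within Smc4, a protein-coding gene for a condensin subunit, with 66 bases between them. They give miR-15b-5p at chr3:69009775-69009796 and a second copy of the same miR-16-5p at chr3:69009918-69009939, both on the plus strand. The array therefore measured the sum of both miR-16-5p loci. Mir497 and Mir195a are separated by 241 bases and give miR-497a-5p at chr11:70234730-70234751 and miR-195a-5p at chr11:70235062-70235082, on the plus strand and in no annotated host gene. On the X chromosome, Mir322 and Mir503 lie 200 bases apart within the long noncoding RNA gene C430049B03Rik. Their products are miR-322-5p at chrX:53054306-53054327, miR-322-3p at chrX:53054269-53054289 and miR-503-5p at chrX:53054027-53054049, all on the minus strand.

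The family was measured with 18 probes. The brightest probe of each miRNA, which represents it below, covered its last 14 to 22 bases, and only those of miR-15a-5p and miR-322-5p covered the whole seed. Only placements of a whole probe within another mature sequence of the RefSeq table were compared. So placed, the nearest other miRNA differed by at least 4 bases for 7 of the 8 brightest probes. The miR-195a-5p probe was the exception, with 2 mismatches to miR-16-5p. The miR-16-5p probe covers bases 5 to 22, so it was not compared in register with miR-195a-5p, which ends at base 21. These miRNAs differ at 2 of 21 bases, and a contribution of either to the other's signal was not tested. The miR-322-3p probe was the shortest, at 14 bases.

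Signals are given as log2 of the spot intensity after division by the array's own 75th percentile, taken over the 623 probes that every array detected. A level can be compared between arrays for a probe but not between probes. That percentile was 435 to 482 intensity units on the UUO arrays and 394 to 413 on the Sham arrays, and 720 to 800 of 4415 probes were detected per array. Over the tested miRNAs, arrays of 1 group correlated at 0.991 to 0.999 and arrays of different groups at 0.948 to 0.964. All 8 arrays were on a single slide with the UUO arrays in one row and the Sham arrays in the other, so slide row and group cannot be told apart.

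With this scaling 6 of the 7 5p members were higher in UUO than in Sham kidneys, led by miR-15b-5p at 1.89-fold. Here only 1 member, miR-15b-5p, changed by over 1.5-fold, and the other 5 that rose did so by 1.16- to 1.42-fold. Of the arms of miR-322, miR-322-5p was not called and miR-322-3p was 1.18-fold lower, a call that was lost without scaling. Calls are at an adjusted p under 0.05 in limma with Benjamini-Hochberg adjustment over the 408 tested miRNAs. Of all tested miRNAs 39.7% were called higher and 27.7% lower, against 6 and 1 of the 8 members. The counts depended on the processing: unscaled intensities gave 7 higher and 0 lower members. Totals that the scanner software sums per miRNA (the total intensity below), another measure of signal with 499 miRNAs tested in place of 408, gave 1 higher and 2 lower. The median log2 fold change was 0.28 over the 8 members and 0.06 over all tested miRNAs. The UUO and Sham values did not overlap for 7 of the 8 members, and for 61.3% of all tested miRNAs.

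**Figure D1:**
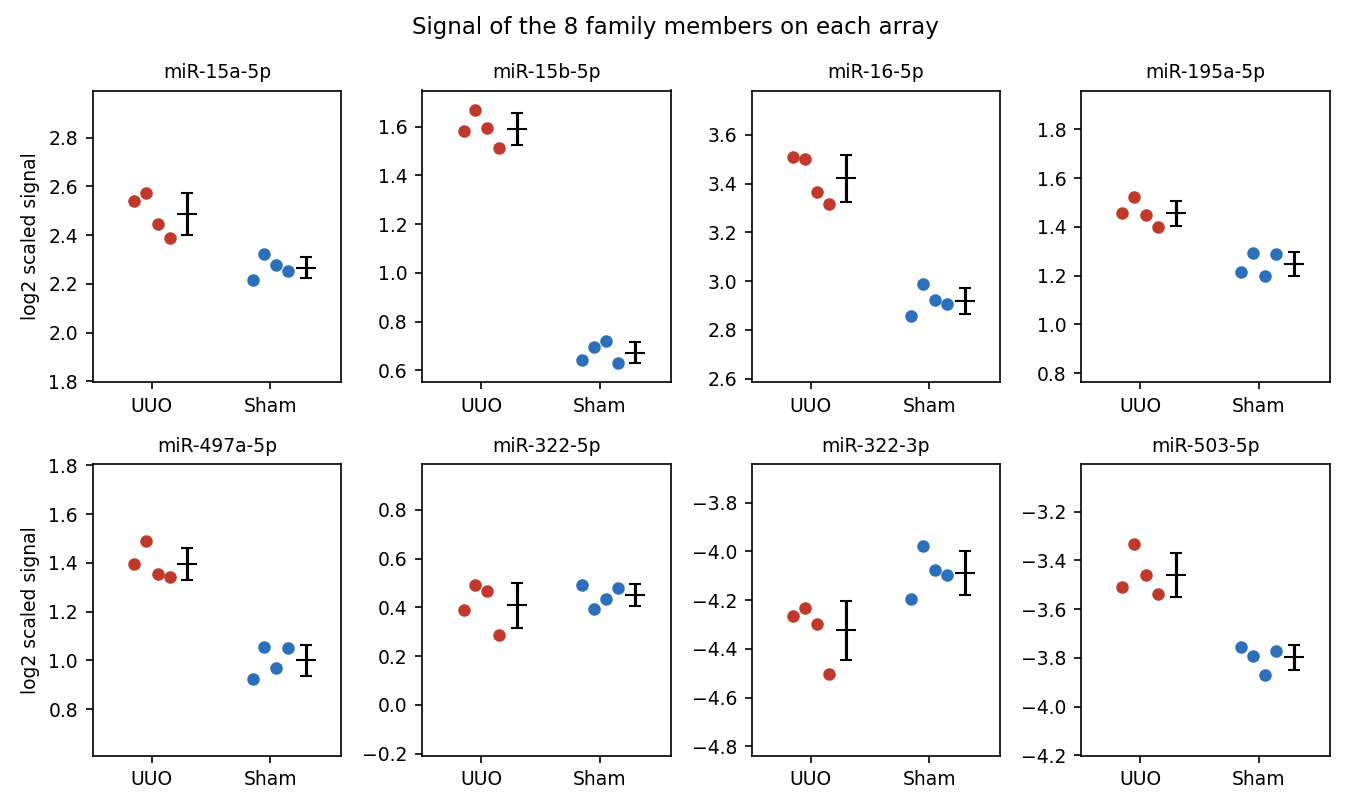
log2 scaled signal of each member (vertical axis, its own level but the same span of log2 units in every panel) on the 4 UUO arrays (red) and the 4 Sham arrays (blue), with the group mean and SD in black. miR-15b-5p shows the widest gap between groups, 0.79 log2 units, and the values of miR-322-5p overlap.

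miR-15b-5p, from the cluster within Smc4, had log2 signals of 1.58, 1.67, 1.59 and 1.51 on UUO arrays 1 to 4, against 0.64, 0.70, 0.72 and 0.63 on Sham arrays 1, 2, 3 and 8. Every UUO array lay above every Sham array, with a gap of 0.79 against SDs of 0.06 and 0.04. The log2 fold change was 0.92 ± 0.05 (SE, n = 4 per group, adjusted p = 1.19e-06, limma), which ranked 54 of 408 from the highest change. As deposited, before any scaling, its probe averaged 1397 ± 30.1 intensity units in UUO and 647 ± 13.4 in Sham (SD, n = 4 each).

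miR-16-5p, the family member most often linked to cell-cycle arrest and the product of 2 loci, had log2 signals of 3.51, 3.50, 3.37 and 3.32 on the UUO arrays and 2.86, 2.99, 2.92 and 2.91 on the Sham arrays. The groups were apart by 0.33, more than the SD of either. It rose 1.42-fold (log2 0.50 ± 0.06 (SE), adjusted p = 0.000132, limma), a call lost with the total intensity (0.18) and the authors' deposited ratio table (0.22), which is built on it. The unscaled intensity was 4987 ± 339 in UUO and 3067 ± 54.6 in Sham (SD, n = 4 each).

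miR-15a-5p shares the Dleu2 transcript with the other miR-16-5p copy. Its log2 signals were 2.54, 2.57, 2.45 and 2.39 in UUO, against 2.22, 2.32, 2.28 and 2.25 in Sham. The groups were separate, but the lowest UUO array and the highest Sham array were only 0.07 apart. The change was 1.17-fold (0.22 ± 0.05 (SE), adjusted p = 0.00733, limma), and its sign turned with the total intensity per miRNA (-0.11) and with the ratio table (-0.070), neither of them called.

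The members of the Mir497 and Mir195a cluster, best known from the heart and skeletal muscle, both rose modestly. miR-497a-5p measured 1.40, 1.49, 1.35 and 1.34 in UUO and 0.93, 1.05, 0.97 and 1.05 in Sham on the log2 scale. All UUO values were above all Sham values, and the miRNA rose 1.31-fold (0.39 ± 0.05 (SE), adjusted p = 0.000307, limma). That call was lost with the ratio table (0.14), the total intensity (0.10) and quantile normalization (0.25). miR-195a-5p measured 1.46, 1.52, 1.45 and 1.40 in UUO, against 1.21, 1.29, 1.20 and 1.29 in Sham. Its groups were 0.11 apart, and it rose 1.16-fold (0.21 ± 0.05 (SE), adjusted p = 0.00465, limma). Its call was lost with quantile normalization (0.056), and its sign turned under the ratio table (-0.10) and the total intensity (-0.14).

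With the scaling used here, the members of the X-chromosome cluster did not all get the same call, and their calls depended on the processing. miR-503-5p, a miRNA known to target cyclin D1 and CDC25A, had log2 signals of -3.51, -3.33, -3.46 and -3.54 in UUO and -3.75, -3.79, -3.87 and -3.77 in Sham. The UUO arrays were all higher, by 0.22 or more. It rose 1.26-fold (0.34 ± 0.06 (SE), adjusted p = 0.00108, limma), but the call was lost in 4 of the 8 settings: quantile normalization (0.14), normexp background correction (0.020), the deposited ratio table (0.025) and the total intensity, where the sign turned (-0.015). The signal was dim: 42.2 ± 0.70 intensity units in UUO and 29.2 ± 1.43 in Sham (SD, n = 4 each), where the lowest detected probe of an array measured 11.9 to 13.3. Normexp as run here adds an offset of 50 units, which by construction shrinks the change of so dim a probe before the percentile is applied.

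miR-322-5p, the mouse counterpart of human miR-424-5p, had log2 signals of 0.39, 0.49, 0.47 and 0.29 in UUO and 0.49, 0.39, 0.43 and 0.48 in Sham. The values overlapped, and the lowest of all 8 was UUO array 4. The log2 fold change was -0.04, with a 95% confidence interval from -0.17 to 0.09 (adjusted p = 0.553, limma). The call depended on the processing: it was higher when arrays were scaled to control spots named dmr (0.24) and on unscaled arrays (0.15), not called with the percentile over all mouse probes (0.095) or normexp background correction (-0.032), and lower with the ratio table (-0.31), the total intensity (-0.35) and quantile normalization (-0.13).

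miR-322-3p had log2 signals of -4.26, -4.23, -4.30 and -4.50 in UUO, against -4.20, -3.98, -4.08 and -4.10 in Sham. The groups were separated by 0.04 only. It fell by 0.24 ± 0.07 on the log2 scale (SE, 1.18-fold lower, adjusted p = 0.0215, limma), but before scaling its intensity of 23.2 ± 1.58 in UUO overlapped that of 23.9 ± 1.03 in Sham (SD, n = 4 each). With the dmr control features its change was 0.048, opposite in sign, and without Sham replicate 2 it was -0.20 and no longer called (adjusted p = 0.0584). It rested on 6 to 7 spots per array, whose coefficient of variation was 3.35 to 18.9%, against 0.866 to 5.65% for the 6 members other than miR-322-3p and miR-503-5p.

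After scaling, all 8 members were lowest on UUO array 4 within their group, and 7 were highest on UUO array 2. Before scaling, 6 of the 8 were highest on UUO array 1 and 4 were lowest on UUO array 4. The order of the arrays thus depended on the scaling, and without any single array the 6 higher calls were made in 8 of 8 fits.

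Second probes gave the same direction for the members that rose. Each lies within the stretch covered by the brightest probe and was read on the same arrays, so the readings are not independent. Of the 18 probes, 14 were detected on all 8 arrays and 15 were tested in a fit over 771 probes, in which 11 family probes were called higher and 1 lower, beside 41.1% and 27.2% of all tested probes. The second probes of miR-15b-5p (log2 0.99), miR-16-5p (0.54), miR-497a-5p (0.52), miR-15a-5p (0.23) and miR-195a-5p (0.19) were called higher. The second miR-322-5p probe, at 0.03, was not called, like the brighter probe. That of miR-503-5p was detected on 4 UUO arrays and 1 Sham array, and its change of 0.16 was not called. The 3 shorter miR-322-3p probes, of 11 to 13 bases, were detected on no array.

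Because scaling by 1 factor per array cancels in the ratio of 2 miRNAs on an array, the ratios of 8 pairs of members were compared between the groups. The level of a ratio depends on the probes, and only its difference between groups is read here. The percentile over all mouse probes, no scaling and the dmr control spots give the same difference as the scaling used here, by construction. The ratio table likewise repeats the total intensity. So only quantile normalization, normexp background correction and the total intensity could move a difference among the processing settings described below. Tests are exact two-sided permutation tests over 4 against 4 arrays, whose smallest possible p is 0.0286, with Benjamini-Hochberg adjustment over the 8 pairs. For 7 pairs the groups did not overlap, and each had that smallest p of 0.0286 (adjusted p = 0.0327, n = 4 per group, exact permutation test). Among single tested miRNAs 61.3% had no overlap between the groups. The share over pairs of all tested miRNAs was not computed, so the count of 7 is not read as particular to the family.

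Hairpin partners changed unequally. The log2 ratio of miR-15a-5p over miR-16-5p was -0.97, -0.93, -0.92 and -0.93 in UUO and -0.64, -0.67, -0.65 and -0.66 in Sham, a difference of -0.28 ± 0.01 (SE) that was -0.46 with quantile normalization. That of miR-15b-5p over miR-16-5p was -1.93, -1.83, -1.77 and -1.80 in UUO, against -2.22, -2.29, -2.20 and -2.28 in Sham, a difference of 0.41 ± 0.04 (SE). The change of miR-16-5p, the shared product, thus lay between those of its partners. Quantile normalization, which reshapes each array, was the exception for miR-15b-5p over miR-16-5p, with -0.043 (p = 0.543, exact permutation test). Normexp background correction gave 0.36 and the total intensity 0.43. The ratio of the paralogs miR-15b-5p over miR-15a-5p was 1.62-fold higher in UUO (log2 0.70 ± 0.03 (SE)), and 0.42 to 0.72 over the 8 settings.

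In the other clusters 2 of the 3 pairs were separated as well. miR-195a-5p over miR-497a-5p was 0.06, 0.03, 0.09 and 0.06 in UUO and 0.29, 0.24, 0.23 and 0.24 in Sham, a difference of -0.19 ± 0.02 (SE) that lost its call with quantile normalization (-0.19, p = 0.0571, exact permutation test). miR-503-5p over miR-322-5p was -3.90, -3.83, -3.93 and -3.82 in UUO, against -4.25, -4.19, -4.30 and -4.25 in Sham. The difference of 0.38 ± 0.04 (SE) shrank to 0.052 with normexp background correction (p = 0.171, exact permutation test). It was 0.27 with quantile normalization and 0.33 with the total intensity. Normexp adds an offset of 50 intensity units, more than the signal of miR-503-5p, so some shrinkage of this ratio was built in. How much was not tested. For the arms of one hairpin, miR-322-5p over miR-322-3p, the values of 4.65, 4.73, 4.77 and 4.79 in UUO overlapped those of 4.69, 4.37, 4.51 and 4.58 in Sham, and the difference of 0.20 ± 0.07 (SE) was not called (p = 0.0571, exact permutation test). With the floor doubled the difference was -0.041, which is the change of miR-322-5p alone, as miR-322-3p was held at a change of 0. With the mean of each miRNA's probes it was 0.056, but the 3 shorter miR-322-3p probes lay at the floor on all 8 arrays. Neither value tests the ratio.

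Against miR-16-5p as a common denominator, the log2 ratio of miR-322-5p differed between UUO and Sham by -0.55 ± 0.07 (SE) and that of miR-195a-5p by -0.30 ± 0.04 (SE). The UUO values lay below all Sham values in both pairs. Over the 8 settings these differences ran from -0.94 to -0.52 for miR-322-5p and from -0.75 to -0.30 for miR-195a-5p.

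**Figure D2:**
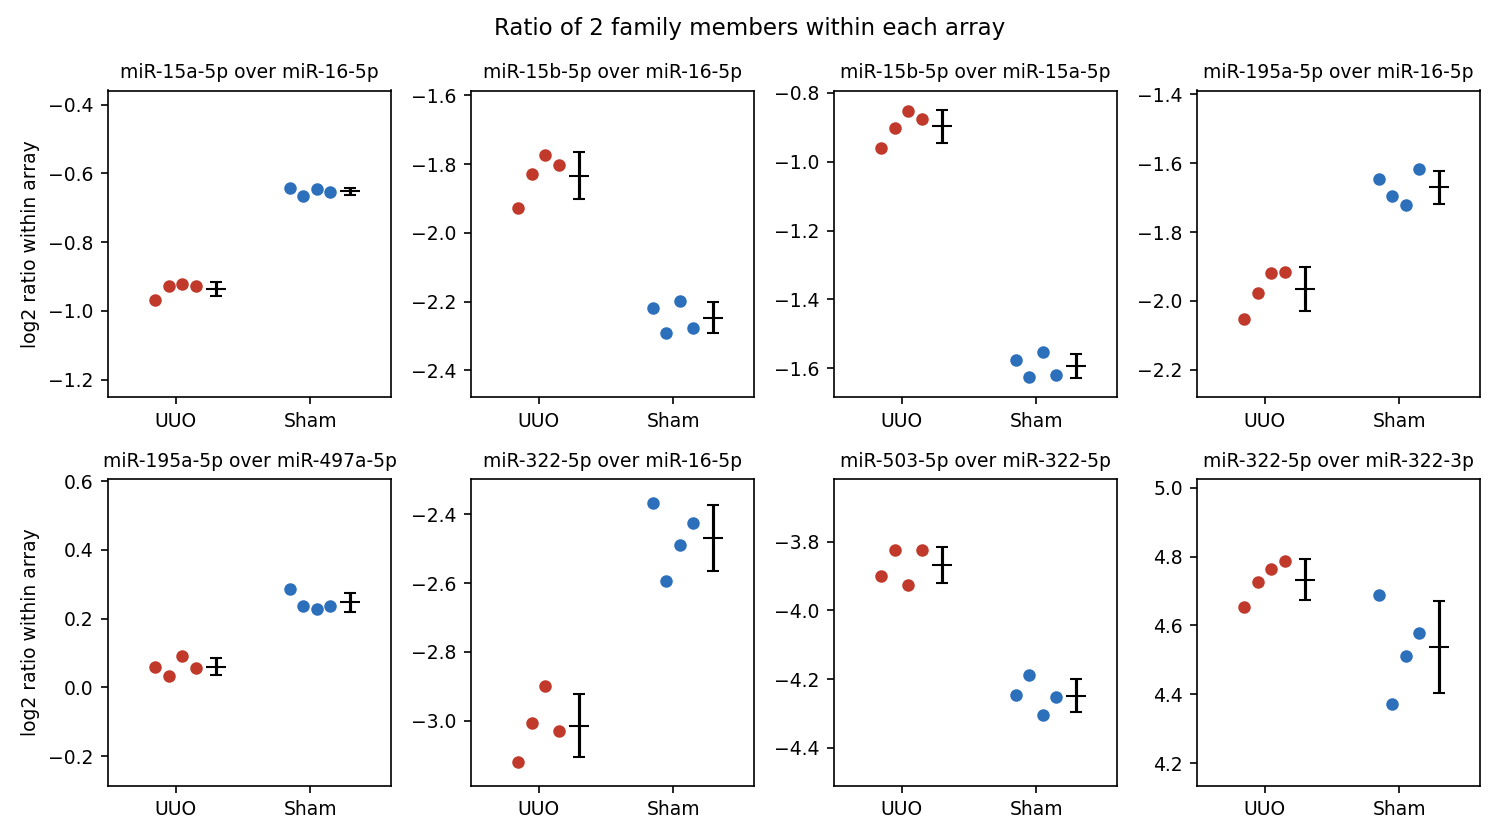
log2 ratio of 2 members on the same array (vertical axis, the same span in every panel) for the 4 UUO arrays (red) and the 4 Sham arrays (blue), with the group mean and SD in black. The groups are apart in 7 of the 8 pairs, and overlap for miR-322-5p over miR-322-3p; under quantile normalization, not drawn, miR-15b-5p over miR-16-5p turns to -0.043.

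The size of each change depended on the processing. The 8 settings compared were the percentile used here, the percentile over all mouse probes, no scaling, quantile normalization, the dmr control spots, normexp background correction with the percentile, the total intensity and the ratio table. The total intensity and the ratio table also change the measure of signal and the miRNAs tested (499). Normexp changes the background and adds an offset of 50 intensity units. Scaling to the dmr control spots rests on 4 control features. The median change of all tested miRNAs itself ran from -0.23 with the total intensity to 0.34 with scaling to the dmr control features, so the members are also given relative to that median. miR-15b-5p was called higher in 8 of 8 settings, with log2 changes from 0.61 to 1.20, and lay 0.80 to 0.90 above the median of its setting. miR-16-5p was called higher in 6 settings (0.18 to 0.80, and 0.41 to 0.84 above the median). miR-497a-5p was positive in all 8 and called in 5 (0.10 to 0.68). miR-15a-5p was called higher in 6, miR-195a-5p in 5 and miR-503-5p in 4, and none of the 3 was called lower in any. These 6 members lay above the median of all tested miRNAs in all 8 settings, by 0.045 to 0.90. miR-322-5p and miR-322-3p lay below it in all 8, at -0.11 to -0.0066 and at -0.34 to -0.16 relative to it. Subtracting the median removes most of what a factor per array changes, so the 8 settings are not separate checks of these positions. Whether such a position was past the error was not tested.

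**Figure D3:**
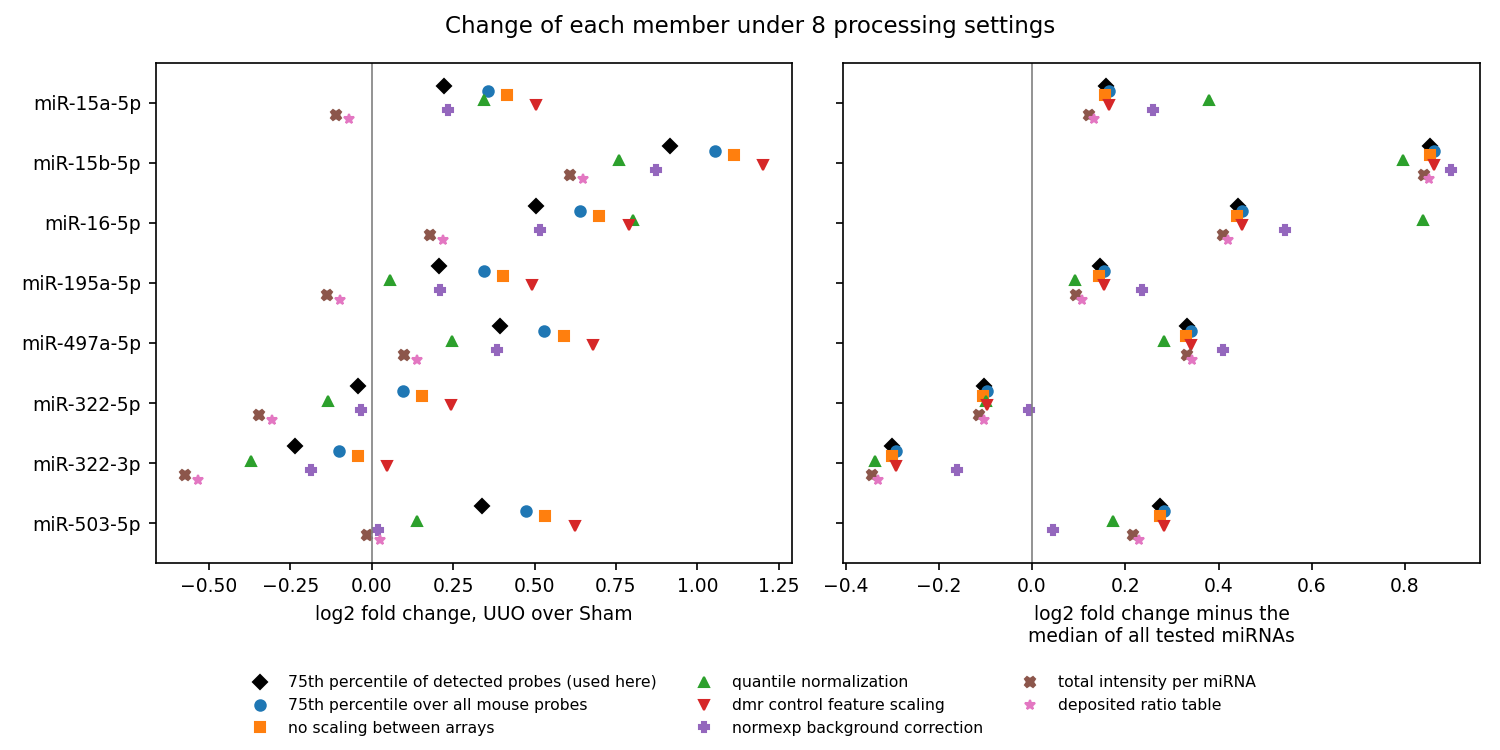
log2 fold change of each member, UUO over Sham, under 8 processing settings (left), and the same value minus the median of all tested miRNAs in that setting (right). On the left the signs of miR-15a-5p, miR-195a-5p, miR-322-5p, miR-322-3p and miR-503-5p turn between settings; on the right the 2 miR-322 arms stay below 0 and the other 6 members above it.

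Other products of these hairpins were mostly below detection. Of the 7 opposite arms on the array, 6 were detected on no array, and miR-15b-3p was detected on 1 UUO array and on 0 Sham arrays. The X-chromosome cluster extends over 6353 bases to Mir450b, and 4 of its other 9 mature miRNAs were detected on at least 1 array. Of these 3 could be tested. miR-450a-5p, which is given by 2 hairpins of the cluster, had log2 signals of -3.02, -2.93, -3.06 and -3.21 in UUO and -2.70, -2.69, -2.72 and -2.64 in Sham. It fell by 0.37 ± 0.06 (SE, adjusted p = 0.00108, limma), and was lower in 7 of the 8 settings and negative in all. miR-542-3p was near the floor in both groups (-0.04 ± 0.05 (SE), adjusted p = 0.451, limma). Over the 8 settings it ran from -0.41 to 0.15 and was called lower in 3 and higher in 1. miR-450a-2-3p was detected on 4 UUO arrays and 0 Sham arrays but lay at or near the floor in both groups. Its values overlapped, and its log2 fold change of 0.07 ± 0.05 (SE) was not called (adjusted p = 0.191, limma). That change ran from -0.17 to 0.31 over the 8 settings and was called higher in 2. miR-542-5p was detected on 0 UUO arrays and on 1 Sham array. Of the 6 miRNAs listed for sharing the family's seed or name (miR-195b, miR-497b, miR-1907, miR-6342, miR-6353 and miR-6419), only miR-1907 was detected, on 2 UUO and 0 Sham arrays, and none was tested. miR-497b carries another seed in the RefSeq table.

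**Figure D4:**
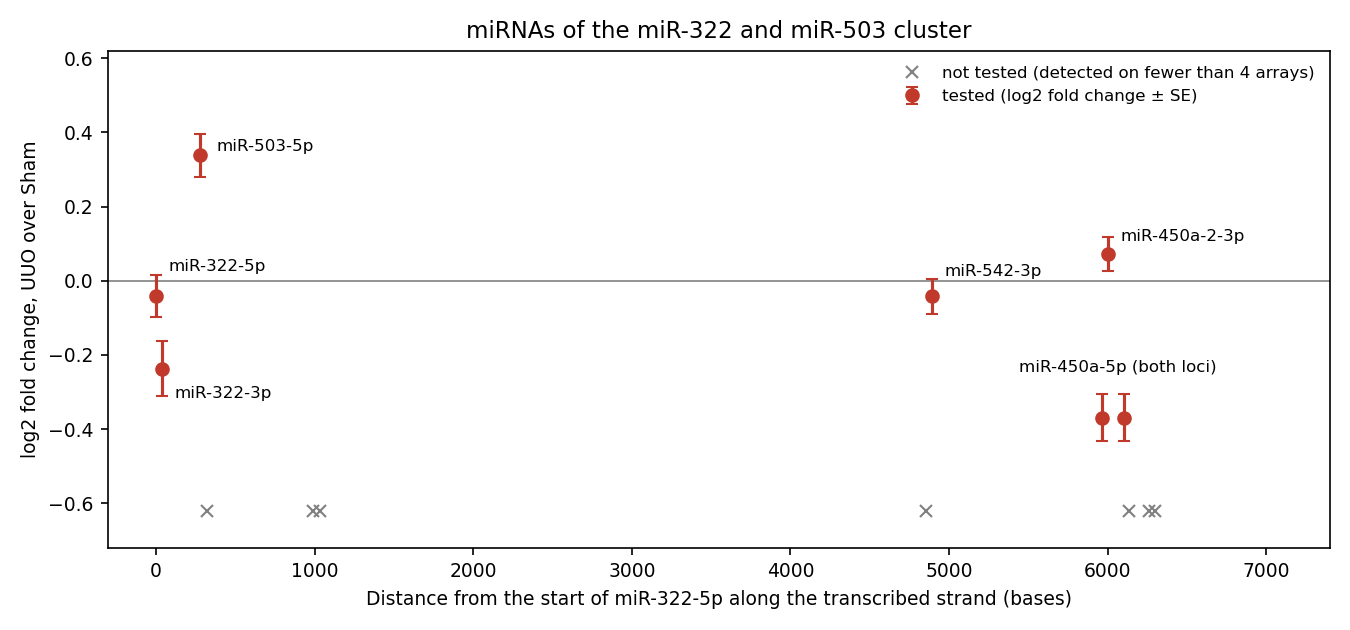
log2 fold change, UUO over Sham, with its SE (vertical axis) of the miRNAs of the X-chromosome cluster by distance in bases from the start of miR-322-5p (horizontal axis); crosses mark miRNAs detected on fewer than 4 arrays. With this scaling miR-503-5p lies at 0.34 between miR-322-3p at -0.24 and miR-450a-5p at -0.37, drawn at both of its loci; the sign of miR-503-5p turns with the total intensity and that of miR-322-3p with the dmr control features.

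The miRNAs outside the family whose 8 mean-centred signals were most like those of a member were found by the root mean square (RMS) difference over the 8 arrays, among 397 tested miRNAs. All points share arrays and the contrast between groups, so this is a description. For miR-15b-5p they were miR-350-3p (0.07) and miR-28a-3p (0.08), and for miR-16-5p miR-744-5p and miR-139-5p (both 0.07). For miR-15a-5p they were miR-340-5p (0.03) and miR-222-3p (0.04), for miR-195a-5p miR-324-5p and miR-3058-3p (both 0.05), and for miR-497a-5p miR-28a-5p and miR-139-5p (both 0.04). miR-503-5p was nearest to miR-28a-5p and miR-143-5p (both 0.05). miR-322-5p was nearest to let-7d-5p and let-7b-5p (both 0.04), and miR-322-3p to miR-126a-5p (0.05) and miR-148b-3p (0.06). Within the family, the closest pair was miR-15a-5p and miR-195a-5p (0.04), from different chromosomes, and the farthest was miR-15b-5p and miR-322-3p (0.58). miR-15b-5p and miR-15a-5p differed by 0.35.

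miRNAs known from particular cell types also differed between the groups, and their part in the changes of the family was not tested. Beside the counts below, 39.7% of all tested miRNAs were called higher and 27.7% lower with the scaling used here. All 8 leukocyte miRNAs rose, and their summed scaled signal was 8.88 to 9.97 in UUO and 2.40 to 2.85 in Sham. Among them miR-142a-3p changed by log2 2.28 and miR-223-3p by 2.30. Of 5 fibroblast and muscle miRNAs 4 rose, with sums of 13.5 to 15.5 in UUO, against 5.38 to 5.99 in Sham. Across the 8 settings 3 to 4 of them were higher and 0 to 1 lower. Of 7 kidney epithelial miRNAs, all detected on every array, 5 fell, with sums of 29.3 to 34.8 in UUO and 50.1 to 53.3 in Sham, although across the 8 settings between 3 and 6 were lower and up to 2 higher. miR-30a-5p, an epithelial miRNA, fell by 0.75. Of 3 red cell miRNAs 2 fell, with sums of 2.11 to 3.84 in UUO and 3.71 to 5.46 in Sham. Of 2 endothelial miRNAs 1 fell and 1 was not called, with sums of 10.67 to 12.4 in UUO and 12.5 to 13.2 in Sham, a direction that changed with the scaling. Among these lists, the leukocyte miR-511-3p was detected on 4 UUO and 0 Sham arrays and the red cell miR-486a-5p on 3 of each, while every other miRNA was detected on all 8 arrays.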

How the data were processed

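The authors read spot intensities from 1-colour arrays with Agilent Feature Extraction 10.7.3.1, per the file headers, which give probe positions on mm9. They are background-subtracted, linear and not normalized between arrays. The deposited table of the series holds ratios. For the 403 miRNAs checked, each equalled the software's total intensity, multiplied by an array-wide factor of unstated basis and by a constant for that miRNA. It served as an alternative.

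Control spots and outlier spots (2.64 to 2.95% per array) were left out, and no spot was saturated. Spots were averaged per probe. A probe was detected where over 50% of its spots were well above background. After scaling, signals were raised to a floor (log2 -4.89) and log2 was taken. The brightest probe stood for a miRNA. The 408 miRNAs detected on at least 4 arrays were fitted with limma 3.58.1 in R 4.3.3 on group alone. Ratios were tested with SciPy 1.17.1. Alternatives changed the scaling, background correction, signal, dim-miRNA filter, floor, outlier spots, probe choice, blocks and arrays left out. The limma step was run on simulated data with independent values and no shift between arrays. That run does not check the scaling, on which the calls depend. The number of arrays limits the precision.

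All members are named. From outside the family, listed miRNAs detected on an array, the 2 nearest in pattern to each member and up to 2 per cell-type list were eligible to be named. Members, lists, pairs and tests were chosen with earlier results of these data known.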

Additional observations from a re-analysis of the deposited data

Results flagged for a closer look

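An array that lay apart from the others of its group was looked for in 32 groups, the 4 UUO or 4 Sham values of each member's signal and of each ratio. The measure was the gap to the nearest array over the whole range of the group, set against Dixon's limit, which chance passes in about 1 of 20 groups. It was passed in 2 groups. The log2 ratio of miR-15a-5p over miR-16-5p was -0.97 on UUO array 1 and -0.93 to -0.92 on the other UUO arrays (gap over range 0.844). The log2 ratio of miR-195a-5p over miR-497a-5p was 0.29 on Sham array 1, against 0.23 to 0.24 on the other Sham arrays (gap over range 0.852). Both gaps were smaller than the difference between UUO and Sham in the same ratio, and without any single array the 2 differences ran from -0.29 to -0.27 and from -0.20 to -0.17.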

How the results depend on the processing

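Of the 8 members, 3 were called higher and 2 lower with quantile normalization, and 1 higher and 2 lower under both the total intensity and the ratio table. No member was called lower (0) with the percentile over all probes, without scaling, with the dmr control features, with no filter on dim miRNAs, with the floor doubled, with the mean of a miRNA's probes, in the replicate block, or in the same 6 arrays without it. Without 1 array, 6 members were called higher each time and 0 to 1 lower, the exception being Sham replicate 2. The sign turned for miR-322-5p without scaling (0.15), with the dmr features (0.24), with the percentile over all probes (0.095), and in the 6 arrays with shared numbers, with or without the block (0.0098), for miR-322-3p with the dmr features (0.048), for miR-15a-5p, miR-195a-5p and miR-503-5p with the total intensity (-0.11, -0.14 and -0.015), and for miR-15a-5p and miR-195a-5p with the ratio table (-0.070 and -0.10). Among the ratios, quantile normalization gave -0.043 for miR-15b-5p over miR-16-5p and -0.19, no longer called, for miR-195a-5p over miR-497a-5p. Normexp correction gave 0.052, not called, for miR-503-5p over miR-322-5p and 0.15, called, for miR-322-5p over miR-322-3p. The normexp offset exceeds the signal of miR-322-3p, and miR-322-5p alone changed by 0.15 without scaling, so that call is not read as a change of the ratio. The ratio of miR-322-5p over miR-322-3p was -0.041 with the floor doubled and 0.056 with the mean of a miRNA's probes, neither called. These values, and the loss of the miR-322-3p call in these settings, followed from the floor at which its signal or shorter probes lay. The normexp offset of 50 intensity units shrinks the changes of dim probes, such as that of miR-503-5p, by construction before the percentile is applied. After the percentile, the dim miR-322-3p was still called lower (-0.19). How much of the difference from the scaling used here came from the offset was not tested. The cause was not tested in any of the others. The split of calls over all tested miRNAs moved with these settings, of which normexp also changes the background and the total intensity and ratio table also change the signal and the miRNAs tested (499, against 408 in the others): with the scaling used here 162 were higher and 113 lower, without scaling 212 and 77, with the percentile over all probes 194 and 84, with the dmr features 240 and 64, with quantile normalization 123 and 160, with normexp 122 and 156, 109 and 217 with the total intensity, and 118 and 207 with the ratio table.

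Replicate numbers 1, 2 and 3 occur in both groups, but same-numbered arrays did not deviate together (correlations of -0.0008, 0.12 and -0.30), so the numbers were not taken as pairs. With the replicate block, 6 members were called higher and 0 lower, and 142 and 84 of all tested miRNAs. An exact test of a ratio with 3 arrays in a group cannot go below p = 0.0571, so ratios without an array are given as values only. miR-322-3p and miR-503-5p, dim and near the lowest detected signals, are the members that signal over background limits most.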
